A study of Mus musculus with 3 samples.

Results

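Small leucine-rich proteoglycans are secreted proteins of the extracellular matrix, and 10 of their genes were followed here. The members were given as a list of gene symbols (Dcn, Bgn, Lum, Fmod, Ogn, Aspn, Prelp, Omd, Kera and Ecm2), matched by Ensembl identifier, and all 10 were among the 29267 genes of the tables. Expression was measured by RNA-seq with 1 library each of mouse embryonic fibroblasts (MEFs) of the OG2 strain, MEFs of the ICR strain, and embryonic stem cells (ESCs) of the R1 line labelled naive. OG2 mice carry a GFP transgene under Oct4 regulatory sequences, ICR is an outbred stock, and R1 is a single ESC line. MEFs were used at passages 3 to 5 and ESCs at passage 30, and no agent is named for any of these libraries. In the study MEFs were the starting cells of reprogramming and ESCs its reference, so the comparisons ask how the family differs between them and between both MEF strains. Since each strain or line had 1 library, the 2 MEF samples differ in strain as well as in culture.

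Each protein of this family has a core of leucine-rich repeats, and many cores carry chondroitin, dermatan or keratan sulfate chains. Decorin, biglycan and asporin form class I. Fibromodulin, lumican, keratocan, osteomodulin (osteoadherin) and PRELP form class II, and osteoglycin belongs to class III. Several cores bind collagen and limit the thickness of its fibrils, and decorin and biglycan also bind TGF-beta and cell surface receptors. Fibroblasts are a main source of these proteins in connective tissue, while tendon, cartilage, bone and cornea use particular members. ECM2 is a related matrix protein with leucine-rich repeats.

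The counts summed to 5149312 (OG2 MEFs), 4590619 (ICR MEFs) and 1717838 (ESC-labelled library), so that 3 counts corresponded to 0.533, 0.580 and 2.15 CPM, which are counts scaled to library size, here with TMM factors. All 10 listed fibroblast markers were detected in both MEF samples. The ESC-labelled library held 71 counts of Pou5f1, 51 of Nanog and 32 of Sox2, which mark pluripotent cells and had at most 4 counts each in a MEF sample. However, 5 of 12 pluripotency markers were at 0 counts in it, namely Zfp42, Dppa5a, Esrrb, Utf1 and Dppa3. It is therefore named by its label throughout.

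The 10 members lie at 4 places of the mouse genome. In GENCODE M21 on GRCm38, Prelp (chr1:133910304-133921414, minus strand) and Fmod (chr1:134037254-134048277) lie within 138 kb. Dcn (chr10:97479609-97518143), Lum (chr10:97565128-97572703) and Kera (chr10:97606879-97613692) follow each other within 134.1 kb. Ecm2 (chr13:49504810-49532789), Aspn (chr13:49544443-49567565), Omd (chr13:49582462-49592822) and Ogn (chr13:49608046-49624501) lie within 119.7 kb, inside the span of Cenpp on the opposite strand. Bgn (chrX:73483602-73495933) stands alone. All members but Prelp are on the plus strand.

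The 250 bases before the start site are shown for the 5 members on which the results turn and for which RefSeq (GRCm38.p6) gave a window, since members that shared a pattern could be compared there. A window was found for 8 of the 10 members and none for Dcn and Lum. Each is written 5′ to 3′ on the gene's strand. Capitals mark matches on either strand to elements that many promoters share. The core element searched was TATAAA, the usual form of a box that binds the general transcription machinery. The GC box was searched as GGGCGG. The CCAAT box was searched as its name spells it.
Bgn, chrX:73483351-73483600, plus strand: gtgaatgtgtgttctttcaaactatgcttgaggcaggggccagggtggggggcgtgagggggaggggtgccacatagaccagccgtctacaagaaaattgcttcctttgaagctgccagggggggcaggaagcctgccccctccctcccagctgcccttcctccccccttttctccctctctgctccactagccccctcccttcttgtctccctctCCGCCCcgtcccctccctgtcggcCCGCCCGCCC
Ogn, chr13:49607765-49608014, plus strand: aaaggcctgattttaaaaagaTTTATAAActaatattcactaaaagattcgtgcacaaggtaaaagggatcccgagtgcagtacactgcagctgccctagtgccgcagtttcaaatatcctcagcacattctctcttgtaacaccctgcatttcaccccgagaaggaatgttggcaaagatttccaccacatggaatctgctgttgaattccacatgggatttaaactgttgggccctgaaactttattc
Aspn, chr13:49544193-49544442, plus strand: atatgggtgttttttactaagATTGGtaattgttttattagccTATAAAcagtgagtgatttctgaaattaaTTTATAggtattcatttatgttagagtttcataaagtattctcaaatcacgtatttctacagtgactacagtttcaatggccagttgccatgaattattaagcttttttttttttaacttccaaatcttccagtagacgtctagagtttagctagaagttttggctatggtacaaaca
Fmod, chr1:134037004-134037253, plus strand: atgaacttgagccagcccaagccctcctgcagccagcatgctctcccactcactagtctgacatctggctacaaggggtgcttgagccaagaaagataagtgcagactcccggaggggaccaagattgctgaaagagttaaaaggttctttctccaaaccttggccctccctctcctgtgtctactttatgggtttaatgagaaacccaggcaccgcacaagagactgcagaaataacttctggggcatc
Prelp, chr1:133921402-133921651, minus strand: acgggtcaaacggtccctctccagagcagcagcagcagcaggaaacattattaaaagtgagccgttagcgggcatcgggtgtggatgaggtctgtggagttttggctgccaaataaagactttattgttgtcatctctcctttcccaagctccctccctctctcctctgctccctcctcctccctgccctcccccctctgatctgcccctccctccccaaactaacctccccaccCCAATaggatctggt

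These windows differed in base composition. That of Bgn was 64.4% G and C with 7 CpG sites and 3 GC boxes from position -34 on, counted back from the start, of which the 2 nearest the start overlap. Aspn and Ogn, which lie in the same cluster, had 30.0% and 42.0% G and C, 2 and 4 CpG sites, and 2 matches each to TATAAA. The matches of Ogn overlap on opposite strands and begin at positions -229 and -227, and those of Aspn begin at -207 and -178. Fmod had 51.2% G and C and 2 CpG sites, with no capital marked. Prelp had 55.6% G and C and 5 CpG sites, with a CCAAT box from position -15 to -11. The RefSeq starts differed from the GENCODE spans given above for some members. The Prelp window, 133921402-133921651, reaches into the span of Prelp, which ends at 133921414. That of Ogn ends at 49608014, while the span of Ogn begins at 49608046. Among 32536 windows of this length, 12.3% held TATAAA, 33.8% a CCAAT box and 33% a GC box, and the median window had 52.4% G and C and 6 CpG sites. A match to so short a motif describes the letters alone.

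Biglycan was the most abundant member by far in every library. Its level in TPM, which are scaled by gene length and library size, was 2945 in OG2 MEFs, 3590 in ICR MEFs but 181.1 in the ESC-labelled library. It ranked 40th, 26th and 659th among all genes in the same order. Bgn alone gave 92.1%, 87.5% and 68.5% of the summed TPM of the 10 members.

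After Bgn, the levels in MEFs fell into 3 ranges. Ogn, which encodes osteoglycin (mimecan), had 82.46 TPM in OG2 and 138.2 TPM in ICR MEFs. Dcn, encoding decorin, had 57.23 and 95.20 TPM, and Aspn, encoding asporin, had 49.7 and 126.5 TPM. These 3 were the next in both samples, but Dcn and Aspn changed places and their counting intervals overlapped in OG2 MEFs, as did those of Ogn and Aspn in ICR MEFs. Lumican, fibromodulin and PRELP made up the middle range. Lum had 23.61 and 37.33 TPM, Fmod 25.01 and 73.37 TPM, and Prelp 9.72 and 37.35 TPM. The intervals of Lum and Fmod overlapped in OG2 MEFs, and those of Lum and Prelp in ICR MEFs. Omd stood lower with 2.84 and 5.99 TPM. Kera, which encodes keratocan of the cornea, had 1 count in each MEF sample, and Ecm2 had 3 counts in OG2 and 2 in ICR MEFs, all at or below 3 counts, so that neither could be compared between libraries.

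The order was different in the ESC-labelled library. Prelp came next after Bgn with 47.83 TPM and Fmod followed with 28.83 TPM, and both stood apart from all lower members by their counting intervals. The remaining members were at 1.63 TPM or less. Aspn had 7 counts there, Dcn and Ogn 5 each, Lum 4, Omd 3, Ecm2 2 and Kera 0, and their intervals overlapped, so they could not be ordered at this depth. Taken as 3 counts, the limit that a count of 0 allows was 2.15 CPM in this library, and the exact two-sided Poisson interval of Kera reached 2.645 CPM.

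**Figure D1:**
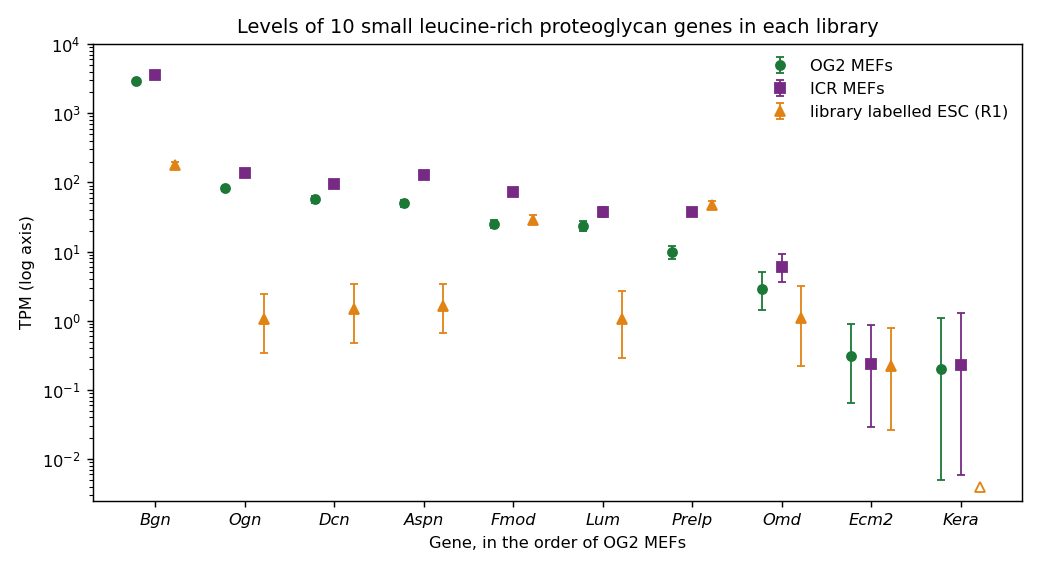
Level of each member in TPM on a log axis in OG2 MEFs (circles), ICR MEFs (squares) and the ESC-labelled library (triangles), with exact Poisson 95% intervals of the counts, which cover counting error only. The open triangle at the bottom marks Kera at 0. Bgn leads in each library, and Prelp and Fmod are the only other members above 2 TPM in the ESC-labelled library.

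Summed over the family, the level was 3196 TPM in OG2 MEFs, 4104 TPM in ICR MEFs but 264.2 TPM in the ESC-labelled library. Without Bgn, the sums were 251.1, 514.3 and 83.16 TPM. As a share of all counts, which is not scaled by length, the 10 members took 0.375%, 0.460% and 0.0776%. Without Bgn this share was 0.0304% in both OG2 MEFs and the ESC-labelled library and 0.0624% in ICR MEFs, so the fall of the sum without Bgn against OG2 MEFs was seen in TPM and not in the share of counts. Prelp and Fmod gave 18.1% and 10.9% of the family's TPM in the ESC-labelled library, against 0.304% and 0.783% in OG2 MEFs and 0.910% and 1.79% in ICR MEFs.

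Between MEFs and the ESC-labelled library, 5 members were lower, namely Bgn, Dcn, Aspn, Ogn and Lum, and Prelp was higher. These 6 passed edgeR's quasi-likelihood test at an adjusted p under 0.05, Fmod and Omd did not, and Kera and Ecm2 had too few counts to be tested. This test could estimate the spread between samples only in MEFs, with 1 residual degree of freedom, as ESCs had no second library. Among all 12663 genes tested, 36.0% were called lower and 31.4% higher, so calls in both directions were common. The median log2 fold change was -2.72 over the 8 tested members and -0.29 over all genes tested. By a rule on fold alone, at least 1 log2 unit of log2(CPM + 1) from both MEF samples, the same 5 members were lower and Prelp was higher, while 25.9% of 17810 genes with a count were lower and 21.9% higher. In bulk RNA, fewer cells that express a gene and less RNA per cell cannot be told apart.

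Class I members were all lower in the ESC-labelled library. Bgn had 17737 and 18246 counts in OG2 and ICR MEFs against 811 in the ESC-labelled library, or 3148, 3530 and 581.6 CPM. MEFs exceeded the ESC-labelled library 5.73-fold (95% counting interval 5.34 to 6.15), and the log2 fold change was -2.35 with an adjusted p of 1.785e-05 by edgeR. Of the members called lower, Bgn had the smallest fold, although its interval overlapped that of Lum, and it was the only one with more than 7 counts in the ESC-labelled library. Dcn, at 48.81 and 76.04 CPM in MEFs, had 3.586 CPM in the ESC-labelled library, a 17.2-fold difference (7.35 to 53.3) with an adjusted p of 0.00017 by edgeR. Aspn had 53.78 and 127.9 CPM in MEFs and 5.02 CPM in the ESC-labelled library, 17.8-fold (8.595 to 44.3) with an adjusted p of 0.00178. Both MEF samples lay above the ESC-labelled library for each of the 3 genes.

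Osteoglycin had the largest fold. Ogn had 97.27 CPM in OG2 MEFs, 152.3 CPM in ICR MEFs and 3.586 CPM in the ESC-labelled library. The difference was 34.5-fold with a wide counting interval of 14.7 to 106.3, and its adjusted p by edgeR was 3.598e-05. The intervals of Ogn, Dcn, Aspn and Lum overlapped, so the depth did not separate their folds.

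Members of class II went different ways. Lum had 22.36 and 33.08 CPM in MEFs and 2.868 CPM in the ESC-labelled library, a 9.59-fold difference (3.70 to 35.4) with an adjusted p of 0.000908 by edgeR. Lumican was thus lower, while PRELP, which is thought to anchor basement membranes to the matrix beneath, was higher. Prelp had 94 counts in OG2 MEFs and 309 in ICR MEFs, with 327 in the ESC-labelled library, although that library was the smallest. This gave 16.68, 59.78 and 234.5 CPM, so the ESC-labelled library stood 3.74 log2 units above OG2 and 1.95 above ICR MEFs. It exceeded the pooled MEF samples 6.29-fold (5.42 to 7.29). The adjusted p was 0.000923 by edgeR but 0.0744 by DESeq2, and on the TPM scale the mean difference was 1.27 log2 units, with 47.83 TPM against 37.35 in ICR MEFs.

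Fibromodulin depended on the MEF sample and on the scale. Fmod had 207, 520 and 169 counts, or 36.74 CPM in OG2 MEFs, 100.6 CPM in ICR MEFs and 121.2 CPM in the ESC-labelled library. The ESC-labelled library stood 1.70 log2 units above OG2 MEFs but 0.27 above ICR MEFs, and the mean difference of 0.98 was within the SD of the MEF samples of 1.01 (n = 2). The adjusted p by edgeR was 0.0868, and it was 0.049 with median-of-ratios scaling. On the TPM scale, which moved the median of all genes by -1.11 log2 units, the difference of Fmod was -0.56 and its level in the ESC-labelled library lay between those of the MEF samples. Omd, with 11, 20 and 3 counts, had 1.952, 3.87 and 2.151 CPM and an adjusted p of 0.835. The MEF to ESC ratio of Omd had an interval from 0.416 to 6.82, so a difference was not detectable at this depth.

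Fmod, Prelp and Bgn also stood apart in base composition. Their transcripts had 55.7%, 54.7% and 52.3% G and C, while the other 7 members had 34.3% to 42.4%. After a correction over bins of G and C content, the difference on the log2 scale was 0.21 for Fmod, 2.37 for Prelp and -2.40 for Bgn. Their directions stayed, and the part of base composition in these differences was otherwise not tested.

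Genes that mark fibroblasts moved together with the members that were lower. All 10 fibroblast markers were called lower by edgeR in the ESC-labelled library, beside 36.0% of all genes tested. By the rule on fold alone 9 were lower, beside 25.9% of genes with a count. Twist1 was not, at -0.944 log2 units from OG2 MEFs. The summed level of the 10 markers was 17587 and 18720 TPM in MEFs and 1241 TPM in the ESC-labelled library. The latter was 6.84% of the MEF mean, with no marker at 0. The summed level of the 10 proteoglycan members there was 7.24% of their MEF mean, most of which is Bgn. By share of counts the corresponding values were 8.92% for the fibroblast markers and 18.6% for the members. Epithelial markers summed to 13 and 22.6 TPM in MEFs and to 273.4 TPM in the ESC-labelled library, with 2 of 8 at 0, and so their sum moved in the same direction as Prelp. Krt14 with 204.9 TPM and Krt8 with 54.09 TPM made up most of that sum. Krt18 had 10.47, 14.51 and 9.29 TPM, but 6.39, 8.32 and 16.49 CPM, and edgeR called it higher in the ESC-labelled library. Its direction thus depended on the scale, as TPM moved the median of all genes by -1.11 log2 units. Of 3 tested osteoblast markers, edgeR called 2 higher in the ESC-labelled library, Alpl and Sp7, and none lower, beside 31.4% called higher among all genes tested. Alpl had 11, 6 and 21 counts and Sp7 5, 3 and 10, and DESeq2 called Alpl but not Sp7. Ibsp of the same list had too few counts to be tested and went the other way with 11, 0 and 0. The part of other cells in either difference was not tested.

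Between the MEF samples, every member with enough counts was higher in ICR than in OG2. A minimum of 10 counts in a MEF sample left 8 members, and 8 of 8 were higher in ICR MEFs, while 49.2% of all 12185 genes with that minimum were. Of these members 3 were at least 1 log2 unit higher, namely Prelp, Fmod and Aspn, against 2.20% of all such genes. The median difference was 0.68 log2 units over the 8 members and -0.005 over all such genes, whose SD was 0.43. With 1 library per strain no test was possible, and the intervals below cover counting error alone.

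The largest ratios were those of Prelp, Fmod and Aspn. For Prelp the ICR to OG2 ratio was 3.58 (95% counting interval 2.84 to 4.56), and 0.558% of all such genes had a larger difference in this direction. Fmod followed with a ratio of 2.74 (2.33 to 3.23) and Aspn with 2.38 (2.07 to 2.73), and 0.911% and 1.27% of genes lay beyond them. The intervals of Prelp and Fmod overlapped, as did those of Fmod and Aspn, so their order was not separated at this depth. After the correction for G and C content the difference of Aspn was 0.89 log2 units and no longer reached 1. Prelp and Fmod, with the largest ratios between strains, were also the members with the highest levels after Bgn in the ESC-labelled library.

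The remaining members differed less. The ratio was 1.57 (1.40 to 1.75) for Ogn, 1.56 (1.33 to 1.82) for Dcn and 1.48 (1.17 to 1.88) for Lum. After the correction for G and C content, the difference of Ogn fell from 0.64 to 0.30 log2 units, while those of Dcn and Lum were 0.52 and 0.43. Before it, these 3 intervals overlapped each other and all lay below those of Fmod, Aspn and Prelp. Omd had a ratio of 1.98, but with 11 and 20 counts its interval of 0.905 to 4.58 included 1. Bgn, the most abundant member, differed least of the 8 with a ratio of 1.12 (1.10 to 1.15), and 28.1% of genes had a larger difference. Its narrow interval reflects its many counts and does not measure the spread between cultures.

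**Figure D2:**
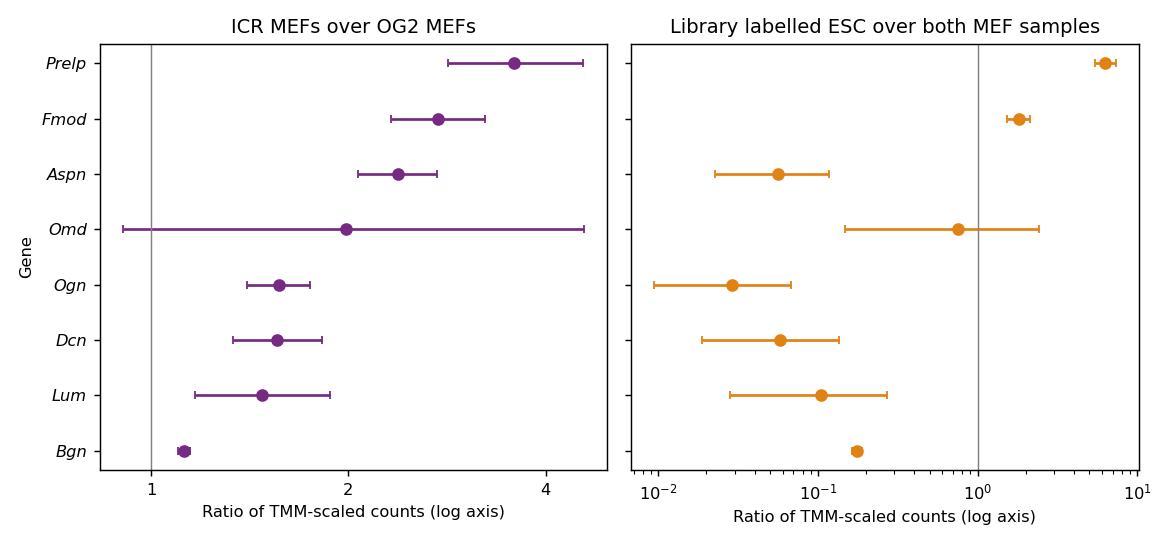
Ratio of TMM-scaled counts of 8 members on log axes, ICR over OG2 MEFs (left) and the ESC-labelled library over both MEF samples (right), with 95% exact binomial intervals for counting error only. All 8 points lie right of 1 on the left, from 1.12 for Bgn to 3.58 for Prelp, while on the right only Prelp and Fmod lie right of 1 on this scale.

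**Figure D3:**
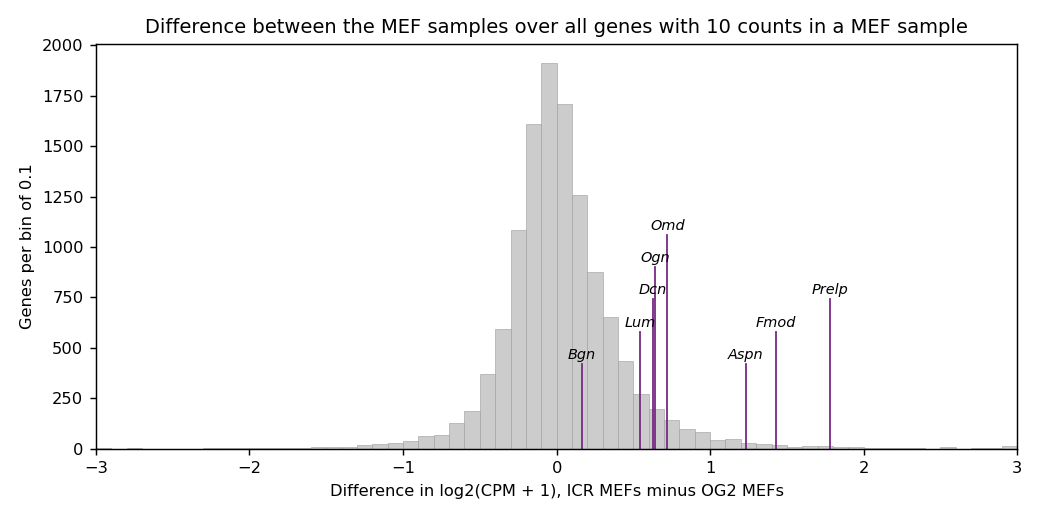
Distribution of the difference in log2(CPM + 1), ICR minus OG2 MEFs, over 12185 genes with at least 10 counts in a MEF sample, with lines at the 8 members and 16 genes beyond 3 log2 units drawn at the ends. The members lie from 0.17 for Bgn to 1.78 for Prelp, right of the centre near 0.

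Markers of chondrocytes and tenocytes, which use several of these proteoglycans, were compared between the same samples. Of 5 chondrocyte markers with 10 counts, 4 were higher in ICR MEFs, 2 of them by at least 1 log2 unit. Over all genes with that minimum these shares were 49.2% and 2.20%. The 2 were Matn3 with 9 and 25 counts and Acan with 7 and 80. Col2a1, which held most of the list's TPM, was lower in ICR MEFs, with 67.83 and 50.2 TPM and a ratio of 0.755 (0.678 to 0.839). The list summed to 79.2 TPM in OG2 and 75.1 TPM in ICR MEFs with Matn1 at 0 in both. Of 4 tenocyte markers, 3 were higher in ICR MEFs, 1 by at least 1 log2 unit, and the list summed to 50.9 and 82.0 TPM with none at 0. Osteoblast markers summed to 24.5 and 14.2 TPM in the MEF samples, against 23.9 TPM in the ESC-labelled library. Leukocyte and endothelial markers gave 23.4 and 24.4 TPM in the MEF samples and 29.7 TPM in the ESC-labelled library, but single genes moved in opposite directions. Of 5 with 10 counts in a MEF sample, Adgre1 and Ptprc were at least 1 log2 unit higher in OG2 and Emcn in ICR MEFs. Over all genes with that minimum, 2.20% were that much higher in ICR, and the share for OG2 was not computed. Adgre1 had 34, 5 and 0 counts, Ptprc 11, 0 and 0, and Emcn 10, 36 and 1, while Pecam1 had 0, 0 and 90. The part of such cells in the strain difference was not tested.

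Members of one genomic cluster did not all share a level. On chromosome 13 Aspn and Ogn reached 126.5 and 138.2 TPM in ICR MEFs, while Omd between them had 5.99 TPM and Ecm2 beside Aspn had 0.24 TPM. On chromosome 10 Dcn and Lum were at 95.20 and 37.33 TPM in ICR MEFs, and Kera next to Lum was at 0.23 TPM. Epyc, a further family gene beyond Kera, had 0 counts in each library. Prelp and Fmod on chromosome 1 were the pair with the largest strain ratios, and Optc, another family gene 2.305 kb from Prelp, had 9, 6 and 0 counts.

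**Figure D4:**
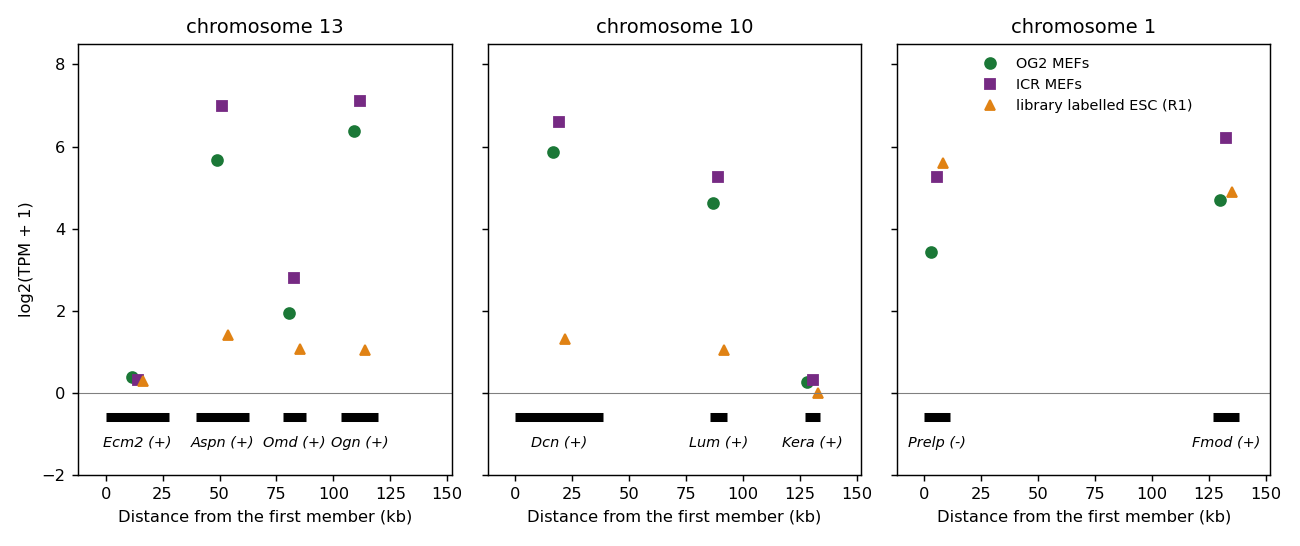
Levels as log2(TPM + 1) of the members of 3 genomic clusters, placed by distance in kb from the first member, with gene spans as black bars and the strand in brackets. Circles are OG2 MEFs, squares ICR MEFs and triangles the ESC-labelled library. Ecm2 and Kera lie near 0 beside members above 4 in both MEF samples.

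The nearest protein-coding genes outside the family were compared between the strains in the same way. Btg2, an antiproliferative gene 26.89 kb from Fmod, had 414 counts in OG2 and 399 in ICR MEFs, a ratio of 1.05 (0.913 to 1.21). Nol8, a nucleolar protein gene 28.58 kb from Ogn, had 92 and 88 counts with a ratio of 1.04 (0.770 to 1.41), and Cenpp, which encodes a centromere protein and spans that cluster, had 29 and 28 counts. The intervals of Btg2 lay below those of Fmod and Prelp, and that of Nol8 lay below that of Aspn but overlapped that of Ogn. Btg2 and Nol8 were called lower in the ESC-labelled library by edgeR, with adjusted p of 0.00022 and 0.0123, and so was Btg1, which lies 856.8 kb from Dcn. Haus7 next to Bgn was called higher with an adjusted p of 2.809e-05, and its ICR to OG2 ratio of 1.17 (0.942 to 1.44) had an interval that included that of Bgn. Haus7 lies 24.56 kb from Bgn, while Atp2b3 on the other side is nearer, at 7.153 kb, and had 1, 0 and 0 counts. Tes3-ps, 8.221 kb from Ecm2, was not among the genes measured. Cenpp shares 7 exonic bases with Aspn on the opposite strand, and Prelp shares 350 with the antisense gene Gm15851, which had 0 counts in each library. Whether the counting used strand is not stated in the sources used here.

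Other genes of the family and of its pathway were read from lists, with up to 4 examples of highest mean TPM in MEFs from each. Chadl, Fam20b, Dse, Xylt1, Xylt2, B4galt7, B3galt6, B3gat3, Col5a3, Col11a2, Tlr2, Bcan, Ncan and Acan fall outside that rule and were named after their values were seen, as were the single marker genes of other cell types above. Of 8 other family genes, 4 had enough counts for edgeR, whose calls stand beside 36.0% lower and 31.4% higher among all genes tested. Tsku, encoding the secreted protein tsukushi, and Podn, encoding podocan, were called lower, Podnl1 had an adjusted p of 0.0838, and Chadl was higher. Tsku had 37.51, 46.70 and 8.37 TPM and Podn 10.26, 15.40 and 1.15 TPM. In CPM they had 44.02, 52.24 and 27.97, and 14.38, 20.7 and 2.151. Tsku was thus less than 1 log2 unit below either MEF sample, and DESeq2 did not call it. Chadl had 8, 7 and 24 counts.

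The chains on decorin, biglycan and their relatives need a linker of sugars, then chain elongation, epimerization and sulfation. Of 20 tested genes for chondroitin and dermatan sulfate, edgeR called 11 lower and 4 higher in the ESC-labelled library, beside 36.0% lower and 31.4% higher among all genes tested. Among the most abundant, Chpf2, a chain polymerizing factor, was lower with 67.26, 74.45 and 9.33 TPM, and Chst14, the dermatan 4-O-sulfotransferase, fell from 286 and 270 counts to 0. Chpf and Chst12 were not called, with adjusted p of 0.373 and 0.476. The 4 genes called higher were Xylt2, B4galt7, B3galt6 and B3gat3, which encode enzymes of the linker. In TPM only B3gat3 stood above both MEF samples, with 40.96, 37.45 and 51.91. B4galt7 had 41.85, 37.48 and 31.83 TPM, Xylt2 16.38, 18.26 and 11.08, and B3galt6 5.79, 7.18 and 4.68. The direction of B4galt7, Xylt2 and B3galt6 thus depended on the scale. Xylt1, a further linker enzyme, was not called, with an adjusted p of 0.604, and DESeq2 called neither Xylt2 nor B3galt6, with adjusted p of 0.0555 and 0.209. Fam20b, the kinase that phosphorylates the linker xylose, and Dse, a dermatan sulfate epimerase, were called lower, with 403, 393 and 10 counts and with 543, 455 and 3 counts. For keratan sulfate, the chain of fibromodulin and lumican, 3 of 4 tested genes were lower and none higher. B3gnt2, B4galt4 and Chst2 were those called, and Chst1 was not, with 67, 65 and 10 counts.

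Partners of the family, such as collagens and receptors, were counted in the same way against the same 36.0% lower and 31.4% higher among all genes tested. Of 9 fibrillar collagen genes, 7 were called lower, among them Col1a1 with 3301, 3526 and 101.3 TPM and Col3a1 with 1065, 1395 and 12.28 TPM, while Col11a2 was higher and Col5a3 was not called. Col11a2 had 4, 10 and 26 counts, with 0.52, 3.18 and 2.24 TPM. Of 11 tested receptors, TGF-beta ligands and processing proteases, 10 were lower and none higher. They included Lrp1, an endocytic receptor for decorin, with 318.7, 383.5 and 18.41 TPM, and Bmp1, a protease that cleaves the biglycan propeptide, with 91.77, 117.2 and 8.57 TPM. Tlr2, a receptor for biglycan, was not called. Of 18 tested cores of other proteoglycans, 9 were lower and 2, Bcan and Ncan, were higher. Bcan had 7, 9 and 13 counts, with 3.55, 2.92 and 2.95 TPM, and Ncan 2, 2 and 15 counts. DESeq2 called Ncan but not Bcan. Vcan, encoding versican, was lower with 162.6, 186.4 and 10.64 TPM. Hspg2, encoding perlecan, was not called, with 322.5, 364.7 and 53.66 TPM but 1470, 1458 and 1064 CPM. The TPM scale moved the median of all genes by -1.11 log2 units, so falls printed in TPM look larger than those in scaled counts.

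The median strain difference was smaller in the lists for chain synthesis, fibrillar collagens and receptors than over the members. The medians of these lists lay between -0.006 and 0.19 log2 units, against 0.68 over the 8 members. None of their genes with 10 counts in a MEF sample was at least 1 log2 unit higher in ICR MEFs. Of all genes with that minimum only 2.20% were, so none in lists of this size lies near that share. Among the other proteoglycan cores 1 gene was that much higher, Acan, which encodes aggrecan and had 7 counts in OG2 and 80 in ICR MEFs. The median was 0.24 over 3 other family genes, 0.16 over these cores and 0.04 over fibroblast markers. For chondrocyte, epithelial and tenocyte markers it was 0.78, 0.76 and 0.54, on 5, 2 and 4 genes. For osteoblast markers it was -0.45, and for leukocyte and endothelial markers -0.84. Whether the lists differ from the members in the strain difference was not tested.

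**Figure D5:**
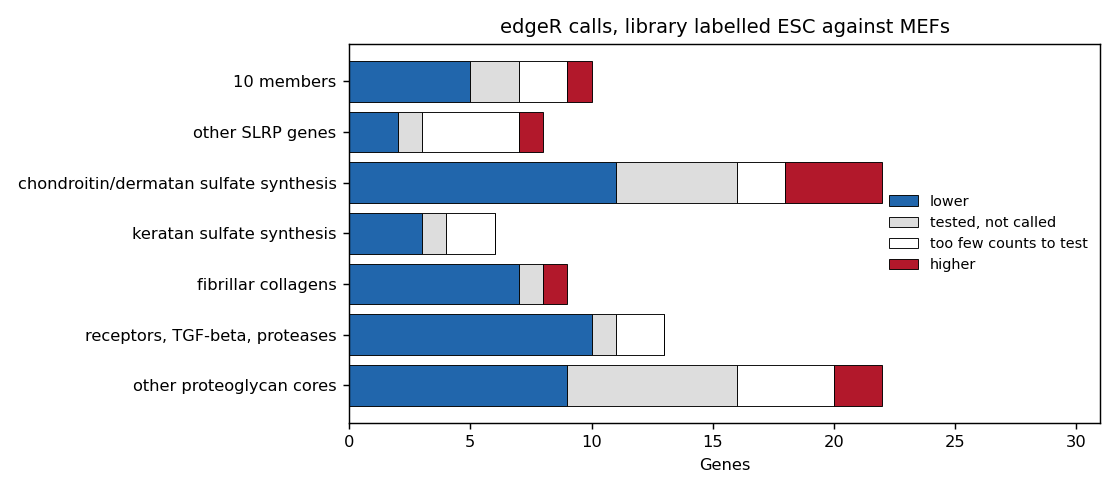
Number of genes of each list called lower (blue), called higher (red), tested but not called (grey) or with too few counts (white) by edgeR, in the ESC-labelled library against MEFs. Of the 10 members 5 are lower and 1 is higher, and of the collagens 7 are lower and 1 is higher.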

How the data were processed

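RNA-seq of 2 MEF samples and 1 ESC sample was analysed. Per the labels, reads were processed by the authors with Bowtie and RSEM on mm10. The deposited expected counts are estimated reads per gene, in which RSEM divides reads that match several genes. They had a decimal part other than 0, with no tolerance, for 9.59%, 10.1% and 11.15% of the genes. The deposited TPM correct these for gene length and library size, and the deposited FPKM were not used. The annotation behind the files is unsure, and symbols were found by identifier for 98.25% of the genes. Which GC-content step, named in the paper's methods, the deposited values had passed is not known, and the counts were used as deposited.

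Expected counts were rounded and scaled with TMM in edgeR 4.0.16 (R 4.3.3), with TMM factors of 1.09, 1.13 and 0.812, and log2(CPM + 1) was computed with a pseudocount of 1, which understates the change of low genes. MEFs and the ESC-labelled library were compared by edgeR's quasi-likelihood test over all genes past its filter on low counts, with Benjamini-Hochberg adjustment over 12663 genes and a threshold of 0.05. The scripts were tested on simulated counts. The MEF samples were of different strains, so p-values measure the spread between these 2 samples. Count ratios have exact binomial and levels exact Poisson intervals at 95%, which cover counting error only. DESeq2 1.42.0, other scalings, pseudocounts of 0.1 and 5, a GC-content correction over 20 bins, no filter and each MEF sample left out were tried as alternatives. TMM over the MEF samples alone was added after seeing the data. All 10 members are named, with up to 4 examples per list by mean TPM in MEFs and the nearest protein-coding neighbours of each cluster. The members and lists were chosen with earlier results of these data known. Intervals came from scipy 1.17.1 under Python 3.11.15.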

Additional observations from a re-analysis of the deposited data

How the results depend on the processing

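The count of 5 members at least 1 log2 unit below both MEF samples was 6 with a pseudocount of 0.1, where Kera with 1, 1 and 0 counts was added, and 5 under the other alternatives run. The count of members above both MEF samples was 1, and it was 2 with a pseudocount of 0.1, where Ecm2 with 3, 2 and 2 counts was added, 0 on the TPM scale and from 1 to 2 with a MEF sample left out, where the second member was Fmod without ICR MEFs. edgeR called 1 member higher, DESeq2 called 0, and edgeR with median-of-ratios scaling or with no filter on low counts called 2, Prelp and Fmod. The count of 3 members at least 1 log2 unit higher in ICR MEFs was 2 after the GC-content correction, which left out Aspn. For single members, 22 of 70 alternative values of the difference between the ESC-labelled library and MEFs and 5 of 60 of the difference between strains moved by more than the compared spread. For the former difference that spread was the SD of the MEF samples, which the shift from leaving a MEF sample out cannot exceed. Only the other alternatives among the 70 could therefore move. Leaving a MEF sample out of the edgeR test was not done, since no residual degree of freedom would remain. No paired analysis was possible because the labels pair neither the OG2 nor the ICR MEFs with the R1 line. The depth of the ESC-labelled library limits the folds of Dcn, Lum, Ogn and Aspn, which rest on 4 to 7 counts there.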
